A study of Homo sapiens with 6 samples.

Results

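The nuclear genes for the subunits of oxidative phosphorylation were followed in U2OS, a long-established line from a human osteosarcoma, after knockdown of H3.X and H3.Y, histone variants of the H3 family that occur in primates. Members were taken by gene symbol alone. They were the probe sets with exactly 1 symbol that begins with NDUFA, NDUFB, NDUFC, NDUFS or NDUFV, with UQCR, with COX4 to COX8 or with ATP5, or that is SDHA, SDHB, SDHC, SDHD, CYC1 or CYCS. Of 99 such probe sets, 8 for the NDUFAF assembly factors and 3 annotated to pseudogenes or non-coding loci were left out. This left 88 probe sets for 81 genes, of 33297 probe sets on each array and of 18417 genes with a probe set of their own. Complex I had 37 probe sets for 34 genes, complex II 5 for 3, complex III 8 for 8, cytochrome c 1 for 1, complex IV 18 for 17 and complex V 19 for 18. SDHB, UQCRFS1, NDUFC2, NDUFS5 and ATP5F1E were not analysed here. The symbol rule also took in ATP5IF1, the inhibitor of ATP synthase, COX7A2L, a factor of supercomplexes of the respiratory chain, and ATP5MGL.

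The 6 arrays formed 3 groups of 2. The control cells received siRNA against luciferase, which has no target in human cells, the second group received siRNA against H3.Y, and the third was knocked down for both H3.X and H3.Y and is called the combined knockdown below. All cells were of 1 line, were transfected 2 times and were harvested 4 days after transfection. Whether the combined knockdown mixed separate siRNAs or used a shared one is not stated in the labels. With 0 probe sets named for H3.X or H3.Y, the siRNA targets themselves were not analysed here. The arrays of a group are labelled biological replicates with no word on separate cultures, so the p-values rest on array-to-array spread, which may be technical.

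Oxidative phosphorylation takes place in the inner mitochondrial membrane. Complex I accepts electrons from NADH and complex II from succinate, coenzyme Q carries them to complex III, cytochrome c carries them on to complex IV, and oxygen is reduced there. Complexes I, III and IV pump protons, and complex V, the ATP synthase, lets them flow back to drive ATP production. Most subunits are encoded in the nucleus and a small set in mitochondrial DNA, so the 2 genomes have to supply the complexes together. NRF1, the ETS family factor GABP and YY1 are known to bind promoters of the nuclear subunit genes.

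The medians of the 6 arrays, 5.10 to 5.14 log2 units, were close, so the arrays were on a common scale, and a change that moves all transcripts alike would not show. Member values ran from 2.31 to 11.95 log2 units, and 79 of the 88 probe sets had a mean of at least 5. Members that code for tissue isoforms made up part of the 9 below it. Values are log2 units as deposited, differences are log2 differences of group means with their standard error (SE), and n is 2 arrays in every group. The mesenchymal markers were measured for 10 of 10 genes, and VIM, an intermediate filament of mesenchymal cells, read between 10.69 and 10.95 on the 6 arrays. RUNX2, a transcription factor of the bone lineage, read between 5.05 and 5.89.

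After H3.Y siRNA the members lay on both sides of the luciferase arrays, whereas after the combined knockdown most lay slightly below the luciferase arrays. Against luciferase, the median difference over the 88 probe sets was -0.04 after H3.Y siRNA and -0.14 after the combined knockdown, beside 0.02 and 0.00 over all probe sets. After H3.Y siRNA 52 probe sets were lower and 36 higher. With the values quantile-normalised again, 41 were lower and the median turned to 0.01, as it did without the second H3.Y array. After the combined knockdown 65 were lower and 23 higher. Set against luciferase, the 2 combined knockdown arrays had member medians of -0.17 and -0.14, the 2 H3.Y arrays had 0.01 and -0.07, and the luciferase arrays had 0.03 and -0.03 around their own mean. Both combined knockdown arrays were thus below the other 4. Against luciferase, the 2 arrays of the combined knockdown lay wholly below at 48 member probe sets and wholly above at 12, beside 24.0% and 23.4% of all probe sets. Among the 79 members with a mean of at least 5, the combined knockdown lay wholly below at 45 and wholly above at 11. This stood beside 31.2% and 28.3% of all probe sets with such a mean. Of the same 79, the H3.Y arrays lay wholly below luciferase at 26 and wholly above at 15. For H3.Y siRNA the shares of all probe sets with such a mean were 26.7% and 22.7%. Set against H3.Y siRNA, the combined knockdown lay wholly below at 43 of 88 and wholly above at 21, beside 25.4% and 21.2% of all. In bulk RNA, fewer cells with a transcript and less of it per cell cannot be told apart.

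Single members rarely passed the test. Calls were made with limma where the adjusted p was under 0.05, with Benjamini-Hochberg adjustment over all probe sets. After H3.Y siRNA 0 of 88 members were called, where 0.279% of all probe sets were, and at an unadjusted p under 0.05 limma gave 9 lower and 3 higher, beside 7.66% and 6.21% of all probe sets. With the replicate number as a block, 1 member, NDUFA5, was called. After the combined knockdown 1 member was called, beside 1.84% of all probe sets, and this member was lower, as were 0.985% of all probe sets. At an unadjusted p under 0.05, 23 were lower and 1 higher. Those 23 made 26.1% of the members, where 8.12% of all probe sets were lower by that rule and 12.8% of probe sets with a mean of at least 5, and higher calls made 7.16% of all probe sets. Between the combined knockdown and H3.Y siRNA 2 members were called, beside 4.67% of all probe sets, and both were lower in the combined knockdown, as were 1.92% of all. At an unadjusted p under 0.05, 16 were lower and 6 higher, beside 9.28% and 9.72% of all. Without any 1 of the 4 luciferase or combined knockdown arrays, 0 members were called in the combined knockdown against luciferase. Between the knockdowns the count was 0 without any array except the second of H3.Y siRNA, and 5 without that one.

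**Figure D1:**
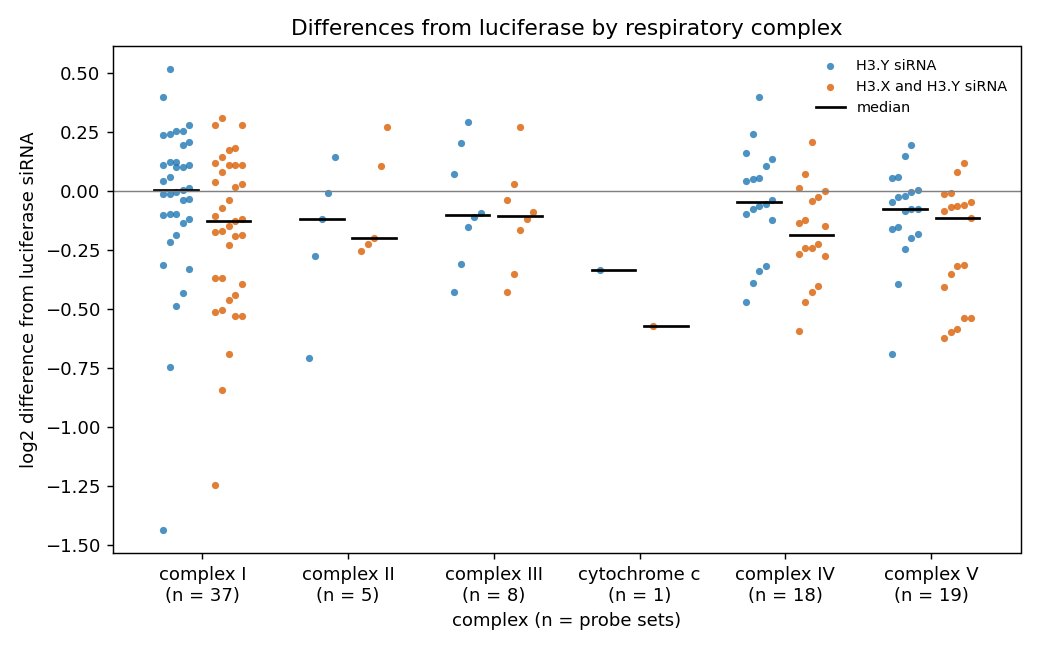
Log2 differences of member probe sets from luciferase siRNA (vertical axis) by complex (horizontal axis), with H3.Y siRNA in blue and the combined knockdown in orange. Each point is 1 probe set, a difference of means of 2 arrays each, and black lines are medians. The orange medians lie below 0 in all 5 complexes, at -0.10 to -0.20, though that of complex II, with 5 probe sets, turns to 0.09 without the second luciferase array, while the blue ones lie between -0.12 and 0.01.

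The 250 bases before the RefSeq start sites of NDUFB6, ATP5PF and NDUFA5 are shown because NDUFB6 and ATP5PF were called in a comparison and NDUFA5 was called under alternative settings. NDUFB4 is shown beside them as a member with several matches to the NRF1 motif. Capitals mark exact matches to the NRF1 consensus, to CCGGAAG (ETS family) or to AAGATGGC (YY1) on either strand. The sequences are from RefSeq, assembly GRCh38.p14, and read 5' to 3' on the gene's strand. NDUFB6 lies at chr9:32573160-32573409 on the minus strand, ATP5PF at chr21:25735055-25735304 on the minus strand, NDUFA5 at chr7:123601652-123601901 on the minus strand and NDUFB4 at chr3:120596086-120596335 on the plus strand.
NDUFB6: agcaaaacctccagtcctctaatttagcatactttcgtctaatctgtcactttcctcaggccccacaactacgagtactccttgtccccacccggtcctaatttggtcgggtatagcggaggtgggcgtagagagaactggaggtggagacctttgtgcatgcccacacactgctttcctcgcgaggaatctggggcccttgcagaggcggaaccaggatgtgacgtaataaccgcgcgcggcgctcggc
ATP5PF: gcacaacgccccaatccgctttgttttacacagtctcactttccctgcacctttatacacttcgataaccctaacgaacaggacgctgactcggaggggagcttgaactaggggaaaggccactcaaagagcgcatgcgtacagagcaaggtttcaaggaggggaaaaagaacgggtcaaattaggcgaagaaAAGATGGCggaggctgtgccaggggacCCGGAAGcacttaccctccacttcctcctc
NDUFA5: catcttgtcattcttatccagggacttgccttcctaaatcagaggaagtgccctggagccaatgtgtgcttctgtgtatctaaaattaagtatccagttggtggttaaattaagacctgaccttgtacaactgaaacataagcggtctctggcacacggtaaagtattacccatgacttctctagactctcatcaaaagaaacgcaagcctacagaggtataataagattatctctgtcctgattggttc
NDUFB4: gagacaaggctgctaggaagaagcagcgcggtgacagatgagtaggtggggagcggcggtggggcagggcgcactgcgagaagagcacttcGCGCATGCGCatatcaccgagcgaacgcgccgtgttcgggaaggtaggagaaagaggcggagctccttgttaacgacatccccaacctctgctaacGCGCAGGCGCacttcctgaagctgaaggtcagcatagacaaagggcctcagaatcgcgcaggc

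In these letters NDUFB6 and NDUFA5 had 0 matches, and other start sites of these genes were not searched. ATP5PF had a YY1 match that begins 57 bases before the start and an ETS match that begins 30 bases before it. NDUFB4 had NRF1 matches that begin 159 and 63 bases before the start, the first of them on both strands, and another that begins 8 bases before it and runs past the printed window.

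NDUFB6, an accessory subunit in the membrane arm of complex I, fell in the combined knockdown. It read 7.06 and 6.99 on the luciferase arrays, 6.98 and 6.80 after H3.Y siRNA, and 5.64 and 5.92 in the combined knockdown. The combined knockdown arrays did not overlap with the other 4. The difference from luciferase was -1.24 ± 0.16 (SE, n = 2), or 2.37-fold lower, with a 95% interval from -1.62 to -0.87 and an adjusted p of 0.024 by limma. Against H3.Y siRNA it was 2.16-fold lower (-1.11 ± 0.16, limma adjusted p = 0.019), whereas H3.Y siRNA alone differed from luciferase by -0.14 ± 0.16 (limma adjusted p = 0.78). Leaving out an array moved the difference from luciferase between -1.39 and -1.10, and the adjusted p by limma rose to between 0.10 and 0.20 without a luciferase or a combined knockdown array. Against H3.Y siRNA the call was lost (limma adjusted p from 0.057 to 0.15) without any array except the second H3.Y array, and at 0.057 with only the 4 arrays compared.

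ATP5PF, which codes for a subunit of the peripheral stalk that holds the catalytic head of ATP synthase in place, fell in the combined knockdown against H3.Y siRNA. It read 7.64 and 7.57 on the luciferase arrays, 7.87 and 7.64 after H3.Y siRNA, and 6.95 and 7.07 in the combined knockdown. The combined knockdown arrays were the 2 lowest. It was 1.68-fold lower than after H3.Y siRNA (-0.75 ± 0.14, limma adjusted p = 0.042). The difference from luciferase was -0.60 ± 0.14 (SE, n = 2) with a limma adjusted p of 0.11, and that of H3.Y siRNA was 0.15 ± 0.14 (limma adjusted p = 0.72). The call was lost without any array except the second H3.Y array, with limma adjusted p from 0.090 to 0.26, and at 0.090 with only the 4 arrays compared.

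NDUFA5, an accessory subunit of the matrix arm of complex I, had the largest difference after H3.Y siRNA but missed the threshold. It read 6.62 and 6.96 on the luciferase arrays, 5.11 and 5.60 after H3.Y siRNA, and 6.11 and 6.42 in the combined knockdown. The 3 groups did not overlap, with H3.Y siRNA lowest and the combined knockdown between. H3.Y siRNA differed from luciferase by -1.44 ± 0.22 (SE, n = 2), or 2.71-fold, with a limma adjusted p of 0.073, and with the replicate number as a block it was called (0.0445). It was also called by limma with either filter and without the second H3.Y array, with adjusted p from 0.0107 to 0.0422. The combined knockdown differed from luciferase by -0.53 ± 0.22 (limma adjusted p = 0.34). It lay 0.91 ± 0.22 above H3.Y siRNA (limma adjusted p = 0.082, and 0.0267 with the block).

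**Figure D2:**
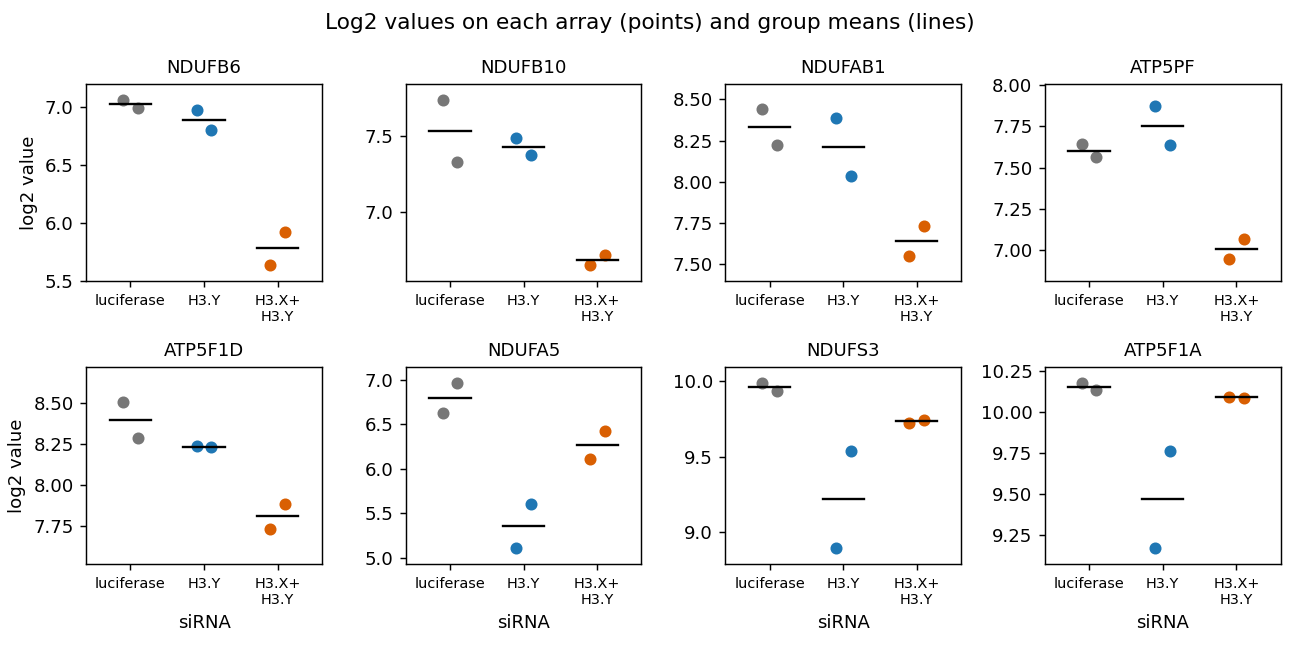
Log2 values (vertical axes, each with its own range) of 8 members on the 6 arrays, grouped by siRNA (horizontal axis: luciferase in grey, H3.Y in blue, H3.X and H3.Y in orange). Points are arrays and lines are means of 2 arrays. NDUFB6, NDUFB10, NDUFAB1, ATP5PF and ATP5F1D have both orange points lowest, whereas NDUFA5, NDUFS3 and ATP5F1A have both blue points lowest.

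In complex I the combined knockdown was below luciferase at 23 of 37 probe sets, with a median of -0.13, and the median after H3.Y siRNA was 0.01. Without the first luciferase array the median of the combined knockdown was -0.07, and without the second luciferase array that of H3.Y siRNA was -0.03. The arrays of the combined knockdown lay wholly below those of luciferase at 19 probe sets and wholly above at 7. Over all probe sets these shares were 24.0% and 23.4%, and among probe sets with a mean of at least 5 they were 31.2% and 28.3%. The matrix arm, which takes electrons from NADH through flavin and iron-sulfur clusters to coenzyme Q, had a median of -0.12 over 17 probe sets. With the values quantile-normalised again it was -0.06, and without the first luciferase array -0.05. The membrane arm, which pumps protons, had -0.15 over 19, or -0.08 without the first luciferase array and -0.09 without the first combined knockdown array. Against H3.Y siRNA the medians of the combined knockdown were -0.07 and -0.27, and 15 of 19 membrane arm probe sets were lower.

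NDUFB10, an accessory subunit of the membrane arm, read 7.73 and 7.33 on the luciferase arrays, 7.48 and 7.38 after H3.Y siRNA, and 6.66 and 6.72 in the combined knockdown. Both combined knockdown arrays were below the other 4. Its difference from luciferase was -0.84 ± 0.17 (SE, n = 2) with a limma adjusted p of 0.072, and with fewer probe sets tested or an intensity trend it was called. NDUFAB1, the mitochondrial acyl carrier protein that is also a subunit of complex I, showed the same order with 8.44 and 8.22, then 8.39 and 8.04, then 7.55 and 7.73. It differed from luciferase by -0.69 ± 0.18 in the combined knockdown (limma adjusted p = 0.13).

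NDUFV2 codes for an iron-sulfur subunit of the NADH-oxidising module. One of its 2 probe sets read 7.72 and 7.63 on the luciferase arrays, 7.68 and 7.77 after H3.Y siRNA, and 7.15 and 7.14 in the combined knockdown. The combined knockdown arrays were again the lowest. The 2 probe sets differed from luciferase by -0.53 and -0.51 in the combined knockdown and by 0.04 and -0.03 after H3.Y siRNA. NDUFV1, the flavin-binding partner of NDUFV2, went the other way with 9.06 and 9.10, then 8.96 and 9.23, then 9.39 and 9.33, a difference of 0.28 ± 0.15 in the combined knockdown (limma adjusted p = 0.45).

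Among the other accessory subunits, NDUFA8 differed from luciferase by -0.44 in the combined knockdown, NDUFC1 by -0.46, NDUFA7 by -0.50 and NDUFB5 by -0.39, each with combined knockdown arrays wholly below luciferase. NDUFB5 and NDUFC1 were also lower after H3.Y siRNA, by -0.43 and -0.22, without overlap. NDUFB4 read 8.86 and 8.90, then 8.82 and 8.75, then 8.44 and 8.58, and differed by -0.37 ± 0.13 in the combined knockdown (limma adjusted p = 0.25). Both NDUFB4 probe sets hold the same values and were kept as deposited, so NDUFB4 enters the counts 2 times.

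NDUFS3, a core subunit near the coenzyme Q site, followed the order of NDUFA5. It read 9.99 and 9.93 on the luciferase arrays, 8.90 and 9.54 after H3.Y siRNA, and 9.72 and 9.74 in the combined knockdown. H3.Y siRNA gave the lowest pair, and its first array was 0.64 below its second. The difference of H3.Y siRNA from luciferase was -0.74 ± 0.22 (limma adjusted p = 0.21). NDUFS1, the largest iron-sulfur subunit, read 9.29 and 9.46, then 8.60 and 9.17, then 9.45 and 9.46, with both H3.Y arrays lowest and 0.57 between them.

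NDUFA13, an accessory membrane arm subunit also known as GRIM-19, was higher after both knockdowns without passing the test. It read 6.84 and 6.72 on the luciferase arrays, 7.32 and 7.27 after H3.Y siRNA, and 7.10 and 7.08 in the combined knockdown. The 3 groups did not overlap. The differences from luciferase were 0.52 ± 0.13 (limma adjusted p = 0.16) and 0.31 ± 0.13 (limma adjusted p = 0.32). NDUFB2, another membrane arm subunit, differed by 0.40 and 0.12, and NDUFA10 by 0.20 and 0.28, both without overlap with luciferase.

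Complex II links the citric acid cycle to the chain. Over its 5 probe sets the median difference from luciferase was -0.20 in the combined knockdown, -0.09 without the first luciferase array and 0.09 without the second. After H3.Y siRNA it was -0.12, and 0.05 without the second H3.Y array. SDHA, its flavoprotein, read 9.47 and 9.57 on the luciferase arrays, 9.67 and 9.66 after H3.Y siRNA, and 9.83 and 9.76 in the combined knockdown. Luciferase was lowest and the combined knockdown highest, with differences of 0.14 ± 0.13 and 0.27 ± 0.13 (limma adjusted p = 0.70 and 0.39). SDHC, a membrane anchor, has 2 probe sets that differed from luciferase by -0.71 and -0.27 after H3.Y siRNA and by -0.20 and 0.11 in the combined knockdown. The 2 SDHC probe sets thus had opposite signs in the combined knockdown, and whether both lie at the gene itself was not checked. SDHD, the other anchor, differed by -0.25 and -0.22 in the combined knockdown and by -0.12 and -0.01 after H3.Y siRNA.

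Complex III and cytochrome c had their largest differences in the 2 cytochromes. CYC1, cytochrome c1 of complex III, read 10.69 and 10.54 on the luciferase arrays, 10.04 and 10.33 after H3.Y siRNA, and 10.07 and 10.30 in the combined knockdown. Both knockdowns lay below luciferase on all arrays, each by -0.43 ± 0.17 (limma adjusted p = 0.32 and 0.29). CYCS, the soluble cytochrome c that also takes part in apoptosis, read 7.76 and 8.03, then 7.41 and 7.72, then 7.19 and 7.46. It was below luciferase in both knockdowns, with differences of -0.33 ± 0.18 for H3.Y siRNA (limma adjusted p = 0.50) and -0.57 ± 0.18 for the combined knockdown (limma adjusted p = 0.21).

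UQCRC1, a core protein of complex III, read 9.13 and 9.18 on the luciferase arrays, 8.91 and 9.20 after H3.Y siRNA, and 9.47 and 9.39 in the combined knockdown, where it was highest (0.27 ± 0.15, limma adjusted p = 0.48). UQCRC2, the other core protein, differed by -0.04 there. The small subunits UQCRH, UQCRQ, UQCR11 and UQCR10 differed from luciferase by -0.35, -0.16, -0.12 and -0.09 in the combined knockdown. UQCRB read between 3.24 and 3.87 on the 6 arrays, with differences of -0.15 and 0.03.

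In complex IV, which reduces oxygen, 15 of 18 probe sets were lower in the combined knockdown than in luciferase, with a median of -0.19, and 10 were lower after H3.Y siRNA, with a median of -0.05 that turned to 0.04 without the first luciferase or the second H3.Y array. Combined knockdown arrays lay wholly below luciferase at 11 probe sets and wholly above at 2, beside 24.0% and 23.4% of all probe sets. COX7B, a small subunit, read 7.80 and 8.07 on the luciferase arrays, 7.62 and 7.31 after H3.Y siRNA, and 7.24 and 7.46 in the combined knockdown. Both knockdowns were below luciferase, by -0.47 ± 0.18 and -0.59 ± 0.18 (limma adjusted p = 0.31 and 0.18). COX7C read 8.36 and 8.61, then 8.08 and 8.25, then 7.92 and 8.12, also below luciferase in both, by -0.32 and -0.47.

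Several complex IV subunits exist as isoforms of general and of tissue-restricted use. COX4I1, the general form of subunit 4, read between 7.30 and 7.44 on the 6 arrays, and differences from luciferase were 0.05 and -0.03. COX4I2, the form known for its use in lung and at low oxygen, read between 4.42 and 4.98. COX7A2, the general form of subunit 7A, read 8.46 and 8.52 on the luciferase arrays, 8.57 and 8.51 after H3.Y siRNA, and 8.10 and 8.02 in the combined knockdown. The combined knockdown arrays were lowest, with -0.43 ± 0.13 from luciferase (limma adjusted p = 0.17) and -0.48 ± 0.13 from H3.Y siRNA (limma adjusted p = 0.092). COX7A1, the heart and muscle form, read between 3.90 and 4.43.

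COX6A1, the general form of subunit 6A, was lower in both knockdowns, with -0.39 and -0.34 after H3.Y siRNA and -0.27 and -0.23 in the combined knockdown at its 2 probe sets. COX6A2, the heart and muscle form, read 5.82 and 5.73 on the luciferase arrays, 6.32 and 6.03 after H3.Y siRNA, and 5.93 and 6.04 in the combined knockdown. It was above luciferase in both, by 0.40 ± 0.15 and 0.21 ± 0.15 (limma adjusted p = 0.31 and 0.64). COX8A, the general form of subunit 8, had differences of -0.06 for H3.Y siRNA and -0.40 for the combined knockdown. COX8C, COX6B2 and COX7B2, forms known from testis, read under 3 log2 units on all arrays, and COX6B1, the general form of 6B, differed by -0.04 and -0.24.

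Complex V had 17 of 19 probe sets below luciferase in the combined knockdown, with a median of -0.11. With the values quantile-normalised again 13 were below and the median was -0.07, and without the second luciferase array the median was -0.21. After H3.Y siRNA 14 were below, with a median of -0.07, and with the values normalised again 10 were below and the median was 0.00. Over the 10 probe sets of the membrane part, which holds the rotating c-ring and the small subunits around it, the median was -0.33 in the combined knockdown and -0.01 after H3.Y siRNA, the latter between -0.14 without the first H3.Y array and 0.08 without the second. All 10 were below luciferase in the combined knockdown, and 8 of them did not overlap with it, where 24.0% of all probe sets and 31.2% of those with a mean of at least 5 lay wholly below. The 10 probe sets stand for 9 genes. Among the 8 are both ATP5MK probe sets and ATP5MGL, which read only between 3.59 and 4.38 on the 6 arrays. All 10 were also below under each of the 2 scaling alternatives, as were 8 to 10 without each luciferase or combined knockdown array in turn. Over the 4 probe sets of the catalytic head and central stalk, all were below luciferase after H3.Y siRNA without overlap, at a median of -0.17, where 26.7% of all probe sets with a mean of at least 5 lay wholly below. In the combined knockdown their median was -0.05, and 0.03 with the values normalised again.

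In the membrane part, the 2 probe sets of ATP5MK, a small subunit linked to dimers of the enzyme, differed from luciferase by -0.62 and -0.54 in the combined knockdown and by -0.04 and 0.01 after H3.Y siRNA. The first read 9.75 and 9.70 on the luciferase arrays, 9.77 and 9.59 after H3.Y siRNA, and 8.99 and 9.20 in the combined knockdown (limma adjusted p = 0.10 against luciferase and 0.085 against H3.Y siRNA). ATP5MJ, another small subunit, read 8.86 and 9.04, then 9.30 and 8.99, then 8.23 and 8.59. For both genes the combined knockdown arrays were the lowest 2. ATP5MJ differed by -0.54 ± 0.19 from luciferase (limma adjusted p = 0.24) and by -0.73 ± 0.19 from H3.Y siRNA (limma adjusted p = 0.090).

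The c-ring subunit is made from 3 genes that give the same mature protein. In the combined knockdown ATP5MC1 differed from luciferase by -0.40, ATP5MC2 by -0.32 and ATP5MC3 by -0.06. After H3.Y siRNA the differences were 0.00, -0.15 and -0.25 in that order. ATP5MC1 and ATP5MC2 had combined knockdown arrays wholly below luciferase, and ATP5MC3 had H3.Y arrays wholly below it. None of the 3 passed the test in a comparison, with limma adjusted p of at least 0.21.

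ATP5F1A, the alpha subunit of the catalytic head, read 10.18 and 10.13 on the luciferase arrays, 9.17 and 9.76 after H3.Y siRNA, and 10.09 and 10.09 in the combined knockdown. H3.Y siRNA was lowest, by -0.69 ± 0.21 from luciferase (limma adjusted p = 0.22), and its 2 arrays lay 0.59 apart. ATP5F1B, the beta subunit, read between 11.84 and 11.95 on all arrays. ATP5F1D, the delta subunit of the central stalk, read 8.50 and 8.29, then 8.23 and 8.23, then 7.73 and 7.88. Here the combined knockdown was lowest, by -0.58 ± 0.14 (limma adjusted p = 0.12). The stalk subunits ATP5PD, ATP5PO and ATP5PB differed from luciferase by between -0.06 and 0.12 in the combined knockdown, while ATP5PF differed by -0.60.

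**Figure D3:**
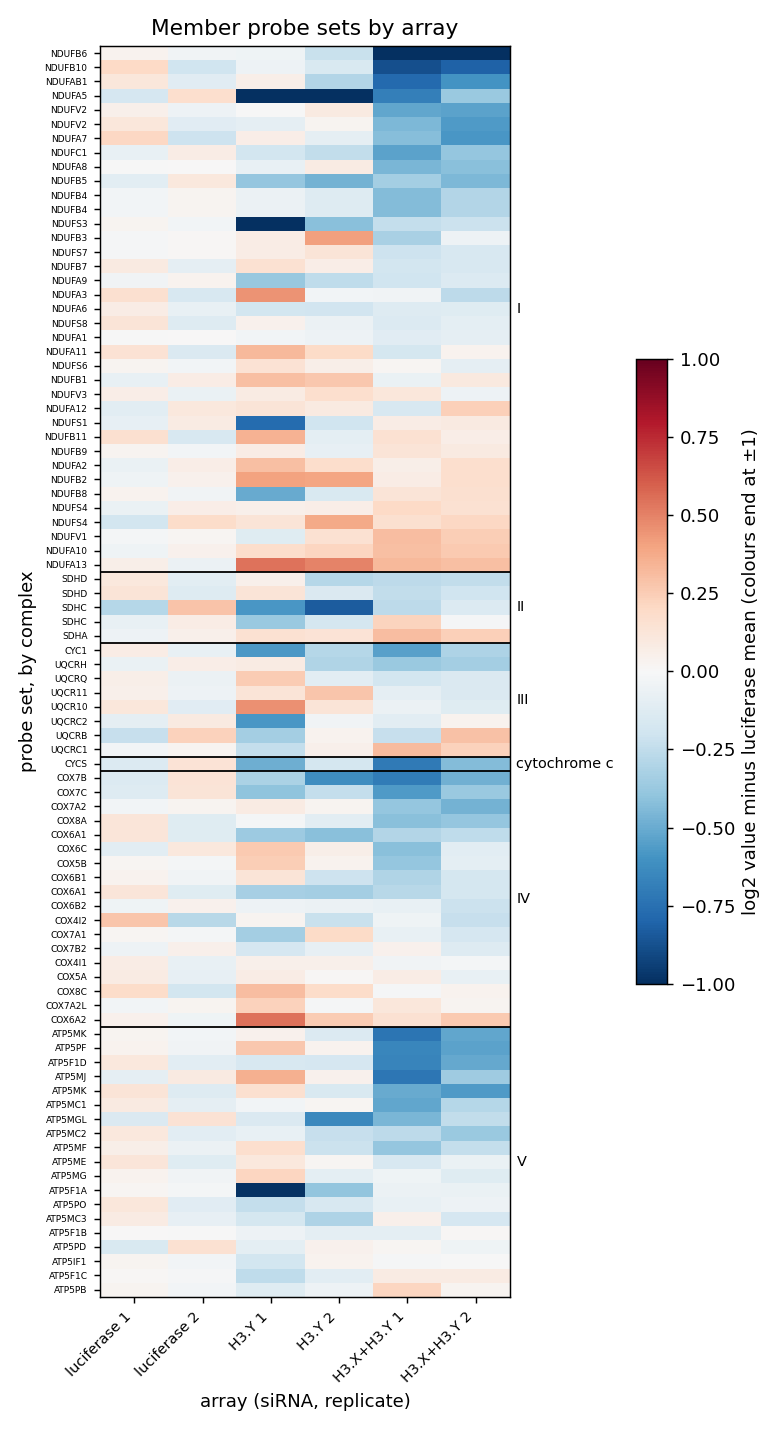
Log2 value minus the luciferase mean (colour, red higher and blue lower, with colours ending at 1 either way) for the 88 member probe sets (rows, by complex and then by the difference in the combined knockdown) on the 6 arrays (columns). The 2 combined knockdown columns are blue over most of complexes IV and V, with medians of -0.19 and -0.11, and the first H3.Y column has single dark rows such as NDUFA5, NDUFS3 and ATP5F1A.

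The spread between the 2 arrays of a group was widest for H3.Y siRNA, and leaving out either of its arrays moved several values. The SD of the difference between the 2 arrays over the members was 0.25 for H3.Y siRNA, 0.21 for luciferase and 0.15 for the combined knockdown, beside 0.42, 0.33 and 0.30 over all probe sets. The first array was lower by 0.64 at NDUFS3, 0.59 at ATP5F1A, 0.57 at NDUFS1, 0.55 at UQCRC2 and 0.50 at NDUFA5. It was higher by 0.47 at NDUFA3 and 0.45 at NDUFB11. Without the second H3.Y array, 3 members were called lower against luciferase by limma, namely NDUFA5, NDUFS3 and ATP5F1A, and without the first, 0 were. The median difference between the knockdowns was -0.13 with both, -0.07 without the first H3.Y array and -0.20 without the second.

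Set side by side, 19 probe sets were below luciferase on all arrays of both knockdowns and 5 were above, beside 9.33% and 8.82% of all probe sets. Among the 19 are both probe sets of NDUFB4, with equal values, and both of COX6A1. Both comparisons use the same 2 luciferase arrays, and the shares among probe sets with a mean of at least 5 are not given here. The 5 were COX6A2, NDUFA10, NDUFA13, NDUFB2 and SDHA. A further 6, for ATP5F1C, COX5B, NDUFB3, NDUFB8, NDUFS7 and UQCR11, lay on opposite sides of luciferase without overlap in the 2 knockdowns, as did 7.41% of all probe sets. NDUFB8, an accessory membrane arm subunit, for example read 9.21 and 9.14 on the luciferase arrays, 8.67 and 9.02 after H3.Y siRNA, and 9.31 and 9.33 in the combined knockdown, and differed between the knockdowns by 0.47 ± 0.16 (limma adjusted p = 0.16).

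COXFA4, until recently named NDUFA4 and now counted with complex IV, does not meet the symbol rule. It read 8.57 and 8.50 on the luciferase arrays, 8.70 and 8.45 after H3.Y siRNA, and 8.34 and 8.37 in the combined knockdown. The combined knockdown arrays were lowest, by -0.17 ± 0.14 from luciferase (limma adjusted p = 0.69). COXFA4L2, the former NDUFA4L2, known as a gene induced at low oxygen, read between 5.40 and 6.04.

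Assembly factors are not part of the finished complexes but are needed to build them. For complex I, 16 of 17 listed genes were measured by 17 probe sets. Limma called 1 of these lower and 0 higher in each of the 3 comparisons, or 5.88% each time. Against luciferase, the shares of all probe sets called were 0.279% for H3.Y siRNA and 1.84% for the combined knockdown. With H3.Y siRNA as the reference the share of all was 4.67%, so a single call there was near that share. TIMMDC1, a membrane protein that helps to assemble the membrane arm, fell in both knockdowns. It read 9.89 and 10.00 on the luciferase arrays, 8.88 and 8.93 after H3.Y siRNA, and 9.19 and 9.22 in the combined knockdown. The 3 groups did not overlap, and the differences from luciferase were -1.04 ± 0.13 (limma adjusted p = 0.046) and -0.74 ± 0.13 (limma adjusted p = 0.047). With the replicate block the limma adjusted p was 0.0549 and 0.0521. Leaving out an array gave limma adjusted p from 0.044 to 0.33 for H3.Y siRNA, where the call held only without the second H3.Y array, and from 0.054 to 0.34 for the combined knockdown. DMAC1, a factor for the distal part of the membrane arm, was lower in the combined knockdown than after H3.Y siRNA by -1.21 ± 0.17 (limma adjusted p = 0.019), and it read 7.31 and 7.08, then 7.89 and 7.56, then 6.47 and 6.56.

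For complex IV, 21 of 26 listed assembly genes were measured by 22 probe sets. Limma called 0 of these after H3.Y siRNA and 1 in the combined knockdown, beside 0.279% and 1.84% of all probe sets. COA6, a factor that takes part in copper delivery to complex IV, fell in the combined knockdown. It read 6.72 and 6.86 on the luciferase arrays, 6.78 and 6.83 after H3.Y siRNA, and 5.57 and 5.64 in the combined knockdown. The difference was -1.18 ± 0.13 from luciferase (limma adjusted p = 0.019) and -1.20 ± 0.13 from H3.Y siRNA (limma adjusted p = 0.011). The call against luciferase was lost (0.12 to 0.18) without any luciferase or combined knockdown array, and that against H3.Y siRNA (0.082 and 0.11) without either combined knockdown array.

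Between the knockdowns 3 more complex IV assembly genes were called. With COA6 this made 4 of 22 probe sets, beside 4.67% of all probe sets. COX14 was lower in the combined knockdown by -0.80 ± 0.13 (limma adjusted p = 0.030). COX15, which makes heme A, was higher by 0.94 ± 0.13 (limma adjusted p = 0.018) and COX20 by 0.71 ± 0.14 (limma adjusted p = 0.042). COX15 read 8.36 and 8.48 on the luciferase arrays, 7.51 and 7.60 after H3.Y siRNA, and 8.53 and 8.47 in the combined knockdown, so the H3.Y arrays stood apart. Of the factors for complexes II and III 9 of 10 genes were measured and for complex V 6 of 7, and 0 were called by limma in each comparison. Counts at an unadjusted p under 0.05 by limma follow in the order H3.Y siRNA, combined knockdown and between them. For complexes II and III, 2, 1 and 2 of 9 probe sets were lower and 0, 1 and 2 higher. For complex V, 1, 2 and 3 of 7 were lower and 0, 0 and 1 higher. Of all probe sets, 7.66%, 8.12% and 9.28% were lower by that rule and 6.21%, 7.16% and 9.72% higher.

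**Figure D4:**
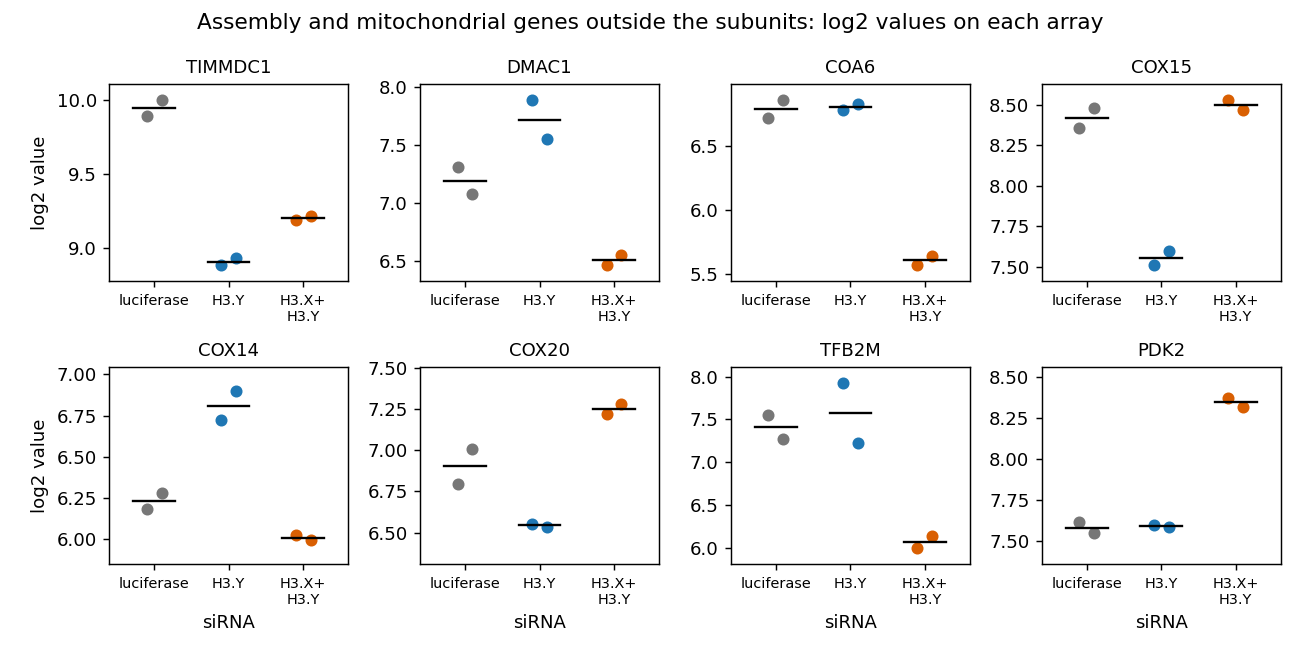
Log2 values (vertical axes, each with its own range) of 8 genes outside the subunits on the 6 arrays, by siRNA (horizontal axis: luciferase in grey, H3.Y in blue, H3.X and H3.Y in orange). Points are arrays and lines are means of 2 arrays. COA6 and TFB2M have both orange points lowest, PDK2 has them highest, and TIMMDC1 and COX15 have both blue points lowest.

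Of 16 genes for transcription and replication of mitochondrial DNA, all were measured. Of their 16 probe sets 1 was called, between the knockdowns, where 4.67% of all probe sets were. TFB2M, which opens mitochondrial promoters for transcription, read 7.55 and 7.27 on the luciferase arrays, 7.92 and 7.22 after H3.Y siRNA, and 6.0 and 6.13 in the combined knockdown. Both combined knockdown arrays were lowest. It differed by -1.51 ± 0.25 from H3.Y siRNA (limma adjusted p = 0.028) and by -1.34 ± 0.25 from luciferase (limma adjusted p = 0.058, and 0.0487 with the replicate block). TFAM, which packages mitochondrial DNA, differed from luciferase by -0.41 ± 0.15 in the combined knockdown (limma adjusted p = 0.26). Of the 13 subunits encoded in mitochondrial DNA 0 were measured under their symbols.

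Regulators of mitochondrial biogenesis were measured for 18 of 18 genes by 19 probe sets, and limma called 0 in each comparison. At an unadjusted p under 0.05 by limma, 1, 3 and 3 probe sets were lower and 1, 2 and 2 higher. Of all probe sets, 7.66%, 8.12% and 9.28% were lower by that rule and 6.21%, 7.16% and 9.72% higher. PRKAA2, a catalytic subunit of AMP-activated kinase, had the smallest p, with -1.02 ± 0.20 in the combined knockdown (limma adjusted p = 0.066). NRF1 differed from luciferase by -0.32 and -0.53 in the 2 knockdowns and YY1 by 0.02 and 0.11. GABPA, the DNA-binding part of GABP, has 2 probe sets that differed by 0.38 and 0.00 in the combined knockdown.

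In the citric acid cycle and at pyruvate dehydrogenase 23 of 26 genes were measured. PDK2, a kinase that inhibits pyruvate dehydrogenase, rose in the combined knockdown. It read 7.62 and 7.55 on the luciferase arrays, 7.60 and 7.58 after H3.Y siRNA, and 8.37 and 8.31 in the combined knockdown (0.76 ± 0.12 against luciferase, limma adjusted p = 0.043, and 0.75 ± 0.12 against H3.Y siRNA, limma adjusted p = 0.029). Leaving out an array put the limma adjusted p against luciferase between 0.051 and 0.33. SUCLG2, a subunit of succinyl-CoA ligase, was higher in the combined knockdown than after H3.Y siRNA by 0.83 ± 0.14 (limma adjusted p = 0.029). CS, citrate synthase, read 9.76 and 9.75, then 9.69 and 9.74, then 9.03 and 9.22, and differed from luciferase by -0.63 ± 0.13 in the combined knockdown (limma adjusted p = 0.083).

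Among genes for coenzyme Q, heme and other routes of electron entry 21 of 21 were measured, and COQ10B, a coenzyme Q binding protein, was lower in the combined knockdown than after H3.Y siRNA by -1.07 ± 0.19 (limma adjusted p = 0.032). That was 1 of 21 probe sets, beside 4.67% of all probe sets. Of the carriers and pores for adenine nucleotides, phosphate and metabolites 9 of 12 were measured by 10 probe sets, and limma called 0. At an unadjusted p under 0.05 by limma, 2, 1 and 0 were lower and 0 higher. Of all probe sets, 7.66%, 8.12% and 9.28% were lower by that rule and 6.21%, 7.16% and 9.72% higher. VDAC2 and VDAC3, pores of the outer membrane, differed from luciferase by -0.55 and -0.57 after H3.Y siRNA. Of the calls between the knockdowns, those of DMAC1, COX15, TFB2M, SUCLG2 and COQ10B held only without the second H3.Y array when arrays were left out in turn, and those of COX14, COX20 and PDK2 in 0 of 6 cases.

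Over the probe sets of each list, the median differences from luciferase after H3.Y siRNA and in the combined knockdown were 0.16 and -0.09 for assembly of complex I, 0.02 and -0.13 for complexes II and III, -0.12 and -0.14 for complex IV and 0.10 and -0.31 for complex V. They were 0.06 and -0.20 for mitochondrial transcription and replication, 0.02 and 0.01 for the regulators, -0.06 and 0.04 for the citric acid cycle, -0.04 and -0.14 for the carriers and -0.20 and -0.05 for coenzyme Q, heme and electron entry. The members' own medians were -0.04 and -0.14, and those of all probe sets 0.02 and 0.00.

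Promoter windows from 250 bases before to 50 after the start were found for 68 of the 81 member genes. The NRF1 motif was in 23.5% of them, beside 6.28% of all 27305 RefSeq windows of the same length. The ETS motif was in 27.9%, beside 10.7%, and the YY1 motif in 14.7%, beside 3.03%. At least 1 of the 3 was in 54.4%, beside 17.9%. The RefSeq windows were not matched to the members for expression or base composition, so the gaps cannot be read as particular to these genes. A match describes these letters only. YY1 matches were in 6 of 32 complex I, 3 of 13 complex V and 0 of 14 complex IV windows.

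Epithelial markers were higher in the combined knockdown. Of 10 epithelial genes 9 were measured by 11 probe sets, 10 of which were higher in the combined knockdown than in luciferase. Of the 11, 2 were called there, where 1.84% of all probe sets were. The mean over the 11 was 6.58 to 6.74 on the luciferase arrays, 6.14 to 6.40 after H3.Y siRNA and 7.30 to 7.35 in the combined knockdown. EPCAM, an epithelial adhesion protein, read between 4.96 and 5.15 at its 2 probe sets on the luciferase arrays and between 7.21 and 7.88 in the combined knockdown, both called. It was the only epithelial gene called against luciferase. After H3.Y siRNA 10 of the 11 epithelial probe sets were lower than in luciferase, with a median of -0.33 and 0 called. Of 10 mesenchymal genes 7 were higher in the combined knockdown, and 1, COL1A1, was called; the list mean was 7.50 to 7.69 on the luciferase arrays, 7.56 after H3.Y siRNA and 7.94 to 8.05 in the combined knockdown. Blood markers were measured for 8 of 10 genes, with means between 4.46 and 4.81 on all arrays. CDH1, the cadherin that defines epithelia, read between 4.16 and 4.88 on the 6 arrays, and PTPRC, which defines leukocytes, between 1.89 and 2.29. The part of these markers in the member values was not tested.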

How the data were processed

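Total RNA of U2OS cells was measured on 6 Affymetrix arrays. The deposited log2 values per probe set had been made by the authors with oligo, per the submitters' processing notes. Its version, background correction and summarisation were not given in the sources used here. That the values are log2 is an inference from their range. They were used as deposited. The number of arrays limits the precision. Probe sets were named from the platform annotation, with symbols updated by Entrez ID through RefSeq. A further 9 probe sets with several symbols that include a member were not used, and 7 member genes have 2 probe sets each. Pseudogenes were recognised by the type of the annotated gene alone. Where each probe set lies in the genome was not checked, so some may match a copy outside the gene. The members and gene lists were chosen with earlier results of these data known.

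Groups were compared with limma 3.58.1 (R 4.3.3), using lmFit and eBayes with a mean for each group over all 6 arrays (degrees of freedom 3 residual, 3.43 prior). Tests are two-sided with Benjamini-Hochberg adjustment over 33297 probe sets in each comparison. The procedure was also run on simulated data with independent noise on each array. The outcome is not given here and is not used for any call. Named members were the called ones, those with the smallest p, the largest rise and the largest fall of each complex, both cytochromes, isoforms, and members that did not overlap with luciferase in both knockdowns; others are named to fill in their complex and were chosen after their values were seen. Deviations of same-numbered arrays from their group means correlated weakly. The values were 0.22 for luciferase and H3.Y, 0.28 for luciferase and the combined knockdown and 0.12 for the knockdowns. The fit reported has no replicate block. In an alternative fit the labels' replicate numbers were taken to pair the arrays, and the blocked value is given where it changed a call. Alternatives were this replicate block, quantile normalization again, a fit on only the 4 arrays compared, an intensity trend, a filter at a mean of 5, median centring, only probe sets with 1 symbol, leaving out each array, and, chosen after seeing the data, 1 probe set per gene. Motifs were searched with Python 3.11.15.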

Additional observations from a re-analysis of the deposited data

How the results depend on the processing

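Over the named members and called pathway genes, 2202 values kept their direction and their side of the threshold, and 52 moved by more than the replicate spread. Another 48 passed the threshold only under an alternative, 98 no longer passed it, and 0 called values changed sign. Only values called in the fit reported could be among the 98. Most of the 2202 were not called to begin with, so they do not show that the calls were stable. Called members after H3.Y siRNA went from 0 to 1 (NDUFA5) with the replicate block, with a mean of at least 5 and with 1 symbol only, and ranged from 0 to 3 when arrays were left out. For the combined knockdown against luciferase they went from 1 to 6 with a mean of at least 5, to 7 with 1 symbol only and to 2 with an intensity trend, and ranged from 0 to 1. Between the knockdowns they went from 2 to 8 with either filter, to 5 with the trend and to 0 with only the 4 arrays compared, and ranged from 0 to 5. The 2 filters test fewer probe sets, and the other causes were not tested. Shares of all probe sets called under these settings are not given, so the rises cannot be read as particular to the members. In the fit reported, 3.13% of probe sets with a mean of at least 5 were called in the combined knockdown against luciferase, beside 1.84% of all. Between the knockdowns these shares were 7.78% and 4.67%. The filter on the mean added NDUFB10, NDUFV2, ATP5F1D, ATP5MK and ATP5PF in the combined knockdown. The replicate block changed no other call of a named gene than those of NDUFA5 (limma adjusted p = 0.0445 against luciferase), TIMMDC1 and TFB2M.

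The median over members in the combined knockdown was -0.12 with the values quantile-normalised again and -0.17 with a mean of at least 5, and ranged from -0.19 to -0.11 when arrays were left out. Between the knockdowns it was -0.13 on quantile normalization, -0.15 with a mean of at least 5 and -0.13 with 1 probe set per gene, and ranged from -0.20 to -0.073. After H3.Y siRNA it ranged from -0.07 to 0.01. In the fit reported, over all probe sets, the smallest called size was 1.04 log2 units after H3.Y siRNA, 0.72 in the combined knockdown and 0.61 between them. With the filter on the mean, smaller ones were called, such as NDUFV2 at -0.53 in the combined knockdown and COX7A2 at -0.48 between the knockdowns.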
